A study of Homo sapiens with 12 samples.

Results

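The transcripts of 35 lysosomal enzymes and membrane proteins were followed across siRNA knockdowns in WI-38, a cell line of fibroblasts from human embryonic lung. They were picked by symbol from a list of 36 genes and make up 35 of the 13937 genes in the table. The remaining gene of the list, MAN2B1, is not analysed here. All 35 reached the minimum for testing, at least 1 CPM (a read count scaled to library size) in 2 or more libraries, as did 13894 genes in all. Transcript 3′ ends were sequenced in 12 libraries, 2 in each of 6 groups. cGAS_YT cells carried siRNAs against the cytosolic DNA sensor cGAS and, in addition, siRNAs against YAP and TAZ, the transcriptional coactivators that the Hippo pathway restrains. STING_YT cells carried siRNAs against STING, the adaptor that acts after cGAS, in addition to those against YAP and TAZ. YT, cGAS and STING cells carried the siRNAs of their name plus the control siRNA, and control cells carried the control siRNA alone. Every group was therefore lipid-transfected with siRNA, and untransfected cells were not analysed here. Whether replicates were separate cultures is not stated in the labels, so p-values reflect only the spread between these libraries, which may be technical.

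Lysosomes are acidic organelles in which proteins, glycans, sulfated glycosaminoglycans and lipids are broken down. Soluble hydrolases made in the endoplasmic reticulum reach them mostly by a mannose phosphate tag, while heavily glycosylated membrane proteins such as LAMP1 and LAMP2 line the organelle. In mammalian cells the transcription factors TFEB and TFE3 bind a short E-box-like element in the promoters of many lysosomal genes. Inherited loss of many of the single enzymes described here causes a lysosomal storage disease. In ageing fibroblast cultures the lysosomal compartment enlarges, and the beta-galactosidase encoded by GLB1 is widely used as a marker of senescent cells.

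The libraries held 17790774 to 20650727 reads, so that 3 reads, the most that a listed 0 allows for, were worth 0.142 to 0.170 CPM (counting error only). The targeted transcripts were low where the labels say so: YAP1 lay at 12.6 to 24.6 CPM in the 6 libraries with YAP and TAZ siRNAs, against 82.2 to 114 CPM in the other 6. YAP1 was higher in cGAS_YT than in YT cells, by a log2 change of 0.63 (limma, adjusted p = 0.00109). The TAZ transcript, listed as WWTR1, changed by -2.32 in cGAS_YT, -2.96 in STING_YT and -2.76 in YT cells, each against its counterpart. WWTR1 was also lower in cGAS (-0.53) and STING cells (-0.46) than in control cells. The part of these differences in the lysosomal changes was not tested. The cGAS transcript, listed as MB21D1, was at 1.94 and 1.77 CPM in cGAS cells, against 9.60 and 6.14 CPM in control cells, and the STING transcript, listed as TMEM173, was at 1.79 and 1.77 CPM in STING cells, against 24.5 and 23.6 CPM in control cells. All 9 fibroblast markers were in the table. Of 9 macrophage markers only CD14 was, at no more than 1.14 CPM. Of 8 epithelial markers KRT8, KRT18 and KRT15 were, and of 6 endothelial markers only TEK. The YT libraries differed from each other more than other replicates did, for CTSL 184 and 107 CPM.

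On the CPM scale, which needs no length correction between genes when each transcript gives about a single 3′ fragment, the 35 transcripts spanned a wide range of levels. CTSB, which encodes the cysteine peptidase cathepsin B, averaged 1082 CPM over the 12 libraries (range 779 to 1490), PSAP, the precursor of the saposins that help enzymes reach their lipid substrates, averaged 1056 CPM (range 852 to 1463), and LAMP1 averaged 984 CPM (range 831 to 1220). These ranges overlapped, so the order of the top 3 is within the spread over libraries. CTSD, the aspartic peptidase cathepsin D, followed at 485 CPM, and TPP1, LAMP2, CTSL and SMPD1 lay together at 150.3 to 165 CPM. MCOLN1, a lysosomal calcium channel, was lowest at 1.30 CPM, next to the fucosidase FUCA1 at 2.20 CPM and the beta-mannosidase MANBA at 2.72 CPM.

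Many of these transcripts were higher with YAP and TAZ siRNAs, whichever other siRNA was present, and few were lower. Relative to control cells, 23 of the 35 were higher in YT cells and 2 were lower by limma with Benjamini-Hochberg adjustment at 0.05, where 20.6% of all genes tested were higher and 20.9% lower (41.6% in either direction). Relative to cGAS cells, 16 of 35 were higher and 0 lower in cGAS_YT cells, beside 15% and 12.7% of all genes (27.7% in either direction). Against STING cells, 18 of 35 were higher and 1 was lower in STING_YT cells, beside 19.1% and 19.8% of all genes (38.9% in either direction). The median log2 change over the 35 was 0.34 in YT cells, 0.34 in cGAS_YT cells and 0.42 in STING_YT cells, and that over all genes was 0.00, 0.03 and 0.03 in the same comparisons. All changes are differences of log2(CPM + 1) between means of 2 libraries per group, a scale on which changes of weakly expressed genes are understated. Their standard error (SE) comes from a joint fit of all 12 libraries, so a transcript has the same SE in each pairwise comparison. The SE therefore does not follow the wider spread of the YT pair.

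The 3 comparisons share no libraries. Higher in all 3 were 11 transcripts, namely CTSA, CTSF, CTSK, CTSO, CTSS, GAA, NEU1, IDS, SGSH, ASAH1 and LAMP1, whereas 7.16% of all genes were. A further 11 were higher in 2 comparisons and CTSB and GLA in 1. For 28 of the 35 the log2 change was positive in all 3. The shares of all genes with these last patterns were not computed, so these counts only describe the 35. In 10 of them, CTSA, CTSK, CTSO, NAGLU, MANBA, NEU1, IDS, PSAP, GM2A and LAMP1, all 6 libraries with YAP and TAZ siRNAs lay above all 6 without, as did 6.51% of all genes. The reverse order held for 0 of the 35 and for 7.82% of all genes. Summed over the 35, the level was 5111 and 5445 CPM in cGAS_YT cells, 6178 and 6079 CPM in STING_YT cells and 6563 and 7212 CPM in YT cells. It was 4535 and 4455 CPM in cGAS cells, 4769.7 and 4604 CPM in STING cells and 5052 and 5041 CPM in control cells, so that each pair with YAP and TAZ siRNAs lay above its counterpart without them. The most abundant, CTSB, PSAP, LAMP1, CTSD and TPP1, gave most of each sum. Together they were at 4553 and 5204 CPM in YT cells, against 3600 and 3542 CPM in control cells.

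**Figure D1:**
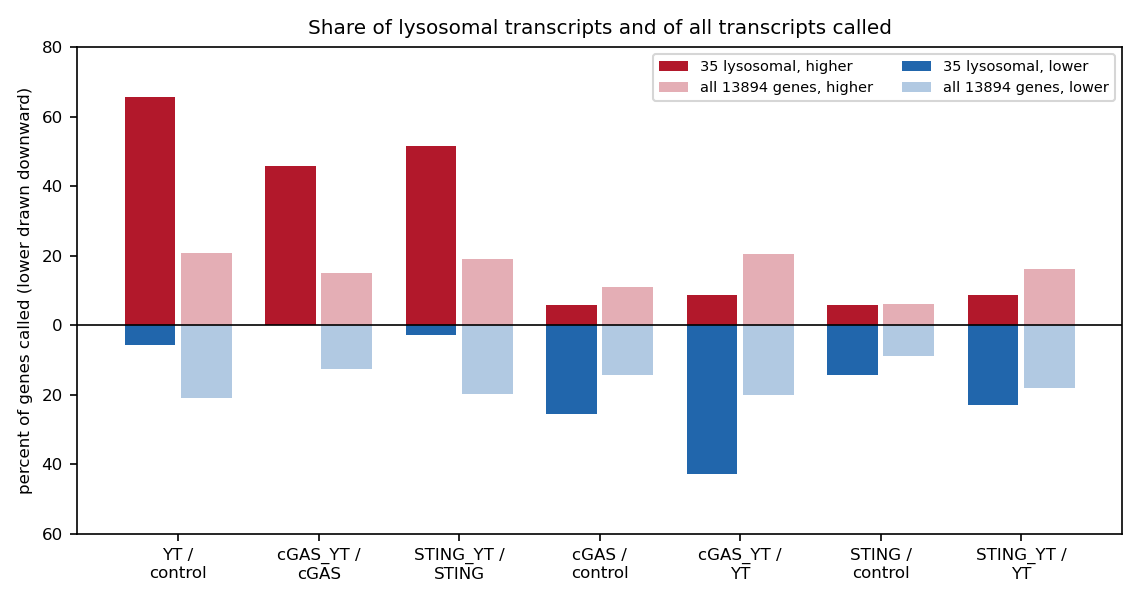
Percent of the 35 lysosomal transcripts, and of all 13894 genes tested, that passed as higher or lower (limma, adjusted p under 0.05) in each of the 7 pairwise comparisons. With YAP and TAZ siRNAs the share of lysosomal transcripts that were higher exceeds that of all genes in all 3 comparisons.

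Some of these calls were lost when a single library was left out. Such a loss need not mean that the call rests on that library. The call of SGSH in YT cells, for example, was also lost without cGAS or STING libraries, which it does not compare. With each of the 12 libraries left out in turn, 14 of the 25 calls of YT against control cells held every time, 5 of the 16 of cGAS_YT against cGAS cells and 13 of the 19 of STING_YT against STING cells. Only CTSK, CTSO, NEU1 and IDS passed as higher in all 3 comparisons whichever library was left out. The endothelial marker TEK moved the same way, at 94.1 and 97.9 CPM in cGAS_YT cells, against 56.5 and 56.5 CPM in cGAS cells, at 77.2 and 74.8 CPM in STING_YT cells, against 53.3 and 49.4 CPM in STING cells, and at 115 and 108 CPM in YT cells, against 71.7 and 68.7 CPM in control cells. The other 5 endothelial markers (PECAM1, VWF, CDH5, KDR and CLDN5) were not among the genes of the table. Summed fibroblast markers ran from 28366 to 30045 CPM in YT cells, against 35062 to 36059 CPM in control cells, and the summed epithelial markers from 25.2 to 32.3 CPM in YT cells, against 40.4 to 47.7 CPM in control cells. The fibroblast sums were 24282 to 27610.3 CPM in cGAS_YT cells, against 24959 to 26017 CPM in cGAS cells, and 36411 to 39317 CPM in STING_YT cells, against 32655 to 32809 CPM in STING cells. The epithelial sums were 16.6 to 17.4 CPM in cGAS_YT cells, against 20.3 to 23.4 CPM in cGAS cells, and 28.2 to 32.6 CPM in STING_YT cells, against 42.5 to 45.5 CPM in STING cells. The part of such shifts in the lysosomal changes was not tested, and in bulk samples fewer cells of a type and less RNA per cell cannot be told apart.

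**Figure D2:**
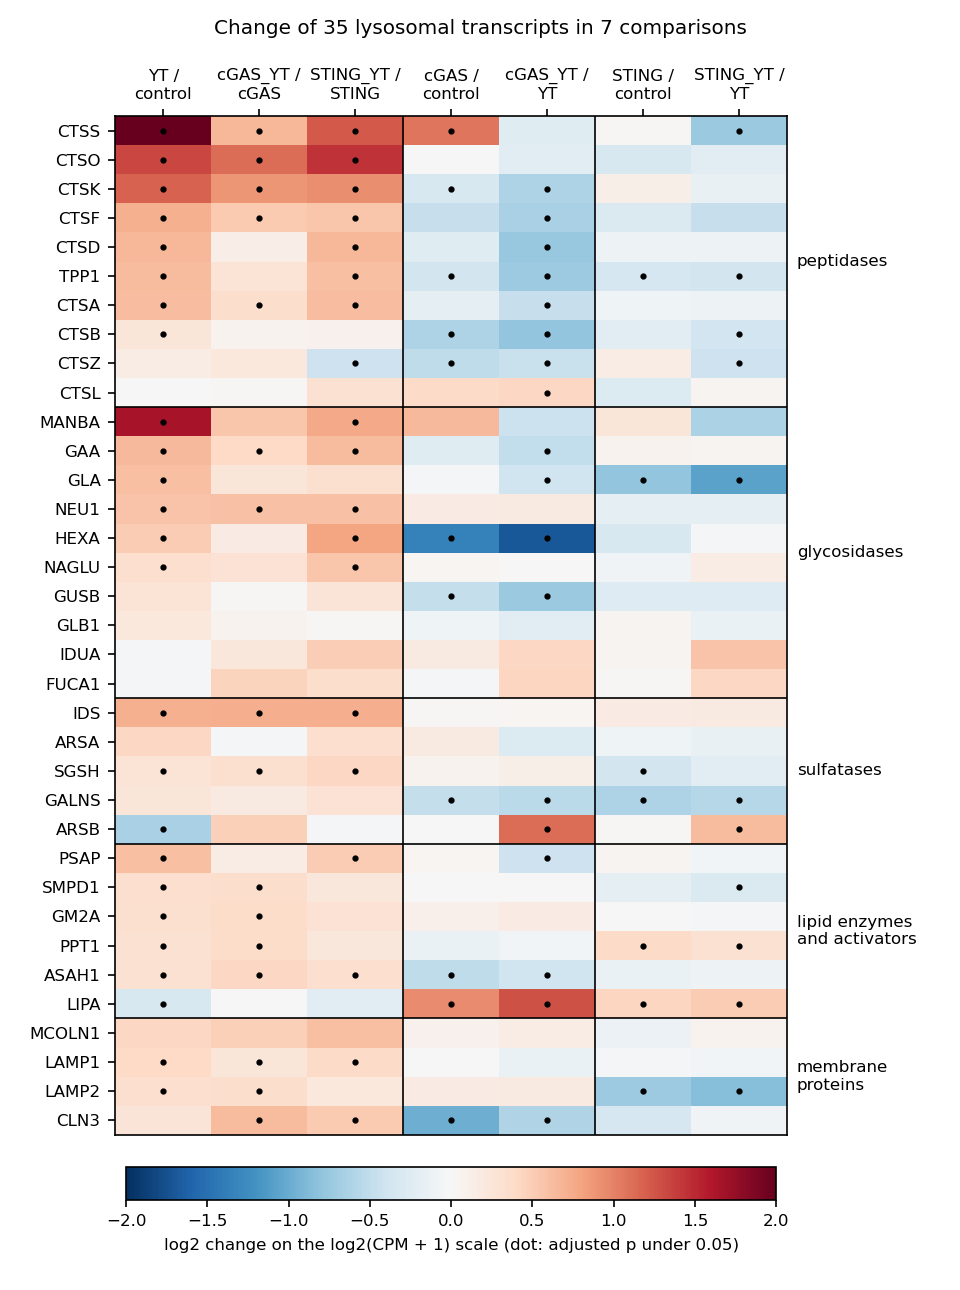
Log2 change of each of the 35 lysosomal transcripts (rows, by role) in 7 comparisons (columns), with a dot where limma's adjusted p was under 0.05. The 3 YAP and TAZ siRNA columns are mostly positive, whereas the cGAS and STING siRNA columns hold changes of both signs, HEXA (-1.36 and -1.69 with cGAS siRNAs) being the most lowered.

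Among the 10 peptidases, 8 rose in YT cells, 5 in cGAS_YT and 7 in STING_YT cells relative to the same cells without YAP and TAZ siRNAs. CTSK encodes cathepsin K, a cysteine peptidase that degrades collagen. It was measured at 105 and 95.6 CPM in cGAS_YT cells, 131 and 149 in STING_YT cells, 166 and 144 in YT cells, 53.2 and 54.2 in cGAS cells, 70.3 and 76.3 in STING cells and 66.7 and 68.3 in control cells. All 6 libraries with YAP and TAZ siRNAs lay above all 6 without, and CTSK rose by 0.89 ± 0.10 (adjusted p = 4.46e-06), 0.92 ± 0.10 (adjusted p = 1.18e-06) and 1.18 ± 0.10 (adjusted p = 5.56e-08) in cGAS_YT, STING_YT and YT cells, each against its counterpart. CTSO, a less studied cysteine peptidase of the same papain family (chr4:155924118-155953917, GRCh38, minus strand), stood at 46.6 and 53.0 CPM in cGAS_YT cells, 51.2 and 48.5 in STING_YT cells, 60.2 and 56.6 in YT cells, 22.6 and 22.2 in cGAS cells, 17.4 and 18.2 in STING cells and 20.5 and 24.5 in control cells. Here, too, the groups did not overlap, and the log2 changes were 1.11 ± 0.11, 1.44 ± 0.11 and 1.34 ± 0.11, with adjusted p of 2.64e-06, 5.45e-08 and 9.97e-08. CTSS, cathepsin S, which processes antigen-presenting class II molecules and is inducible by interferon, reached 35.9 and 27.7 CPM in cGAS_YT cells, 18.6 and 26.0 in STING_YT cells, 39.9 and 35.2 in YT cells, 19.1 and 19.9 in cGAS cells, 8.19 and 9.55 in STING cells and 8.56 and 8.86 in control cells. Control and STING cells held the lowest CTSS levels, and the largest rise of any of the 35 with YAP and TAZ siRNAs was that of CTSS in YT cells, 1.99 ± 0.16 (adjusted p = 7.39e-08). Its rise in STING_YT cells was 1.22 ± 0.16 (adjusted p = 1.95e-05) and in cGAS_YT cells 0.67 ± 0.16 (adjusted p = 0.00611, or 0.0894 without cGAS_YT replicate 9). CTSK (chr1:150796208-150808323) and CTSS (chr1:150730196-150765957, GRCh38) lie near each other on the minus strand of chromosome 1.

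The aspartic peptidase CTSD stood apart from these in cGAS-depleted cells. Its levels were 385 and 418 CPM in cGAS_YT cells, 625 and 638 in STING_YT cells, 607 and 758 in YT cells, 364 and 364 in cGAS cells, 413 and 386 in STING cells and 449.9 and 409 in control cells. CTSD rose by 0.66 ± 0.10 in STING_YT cells (adjusted p = 5.24e-05) and 0.66 ± 0.10 in YT cells (adjusted p = 4.83e-05), while the change in cGAS_YT cells, 0.14 ± 0.10, did not pass (adjusted p = 0.322). TPP1, a tripeptidyl peptidase lost in a childhood neuronal ceroid lipofuscinosis, gave 0.60 in STING_YT and 0.63 in YT cells, both passing, and 0.27 in cGAS_YT cells, which did not pass. CTSA, the protective protein that holds NEU1 and GLB1 in a complex, was at 113 and 133 CPM in cGAS_YT cells, 163 and 153 in STING_YT cells, 149.8 and 191 in YT cells, 98.2 and 93.1 in cGAS cells, 104 and 102 in STING cells and 112 and 108 in control cells. With no overlap between libraries with and without YAP and TAZ siRNAs, CTSA rose in all 3 comparisons, by 0.36, 0.62 and 0.62, the first lost without either cGAS library or cGAS_YT replicate 10 (adjusted p up to 0.222). Exons of CTSA overlap the gene PLTP on the other strand, which was at 18.1 and 29.2 CPM in YT cells, against 16.2 and 15.3 CPM in control cells. CTSF rose in all 3, by 0.52, 0.55 and 0.72, though the value in cGAS_YT cells was 0.24 without replicate 10. The most abundant of the 35, CTSB, passed in YT cells only, at 0.24 ± 0.08, and not without control replicate 1, control replicate 2 or YT replicate 4. CTSL passed in none of the 3, and CTSZ, a carboxypeptidase, fell by 0.42 ± 0.14 in STING_YT cells relative to STING cells (adjusted p = 0.024), with a log2 change of -0.25 without STING replicate 13, where it did not pass.

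**Figure D3:**
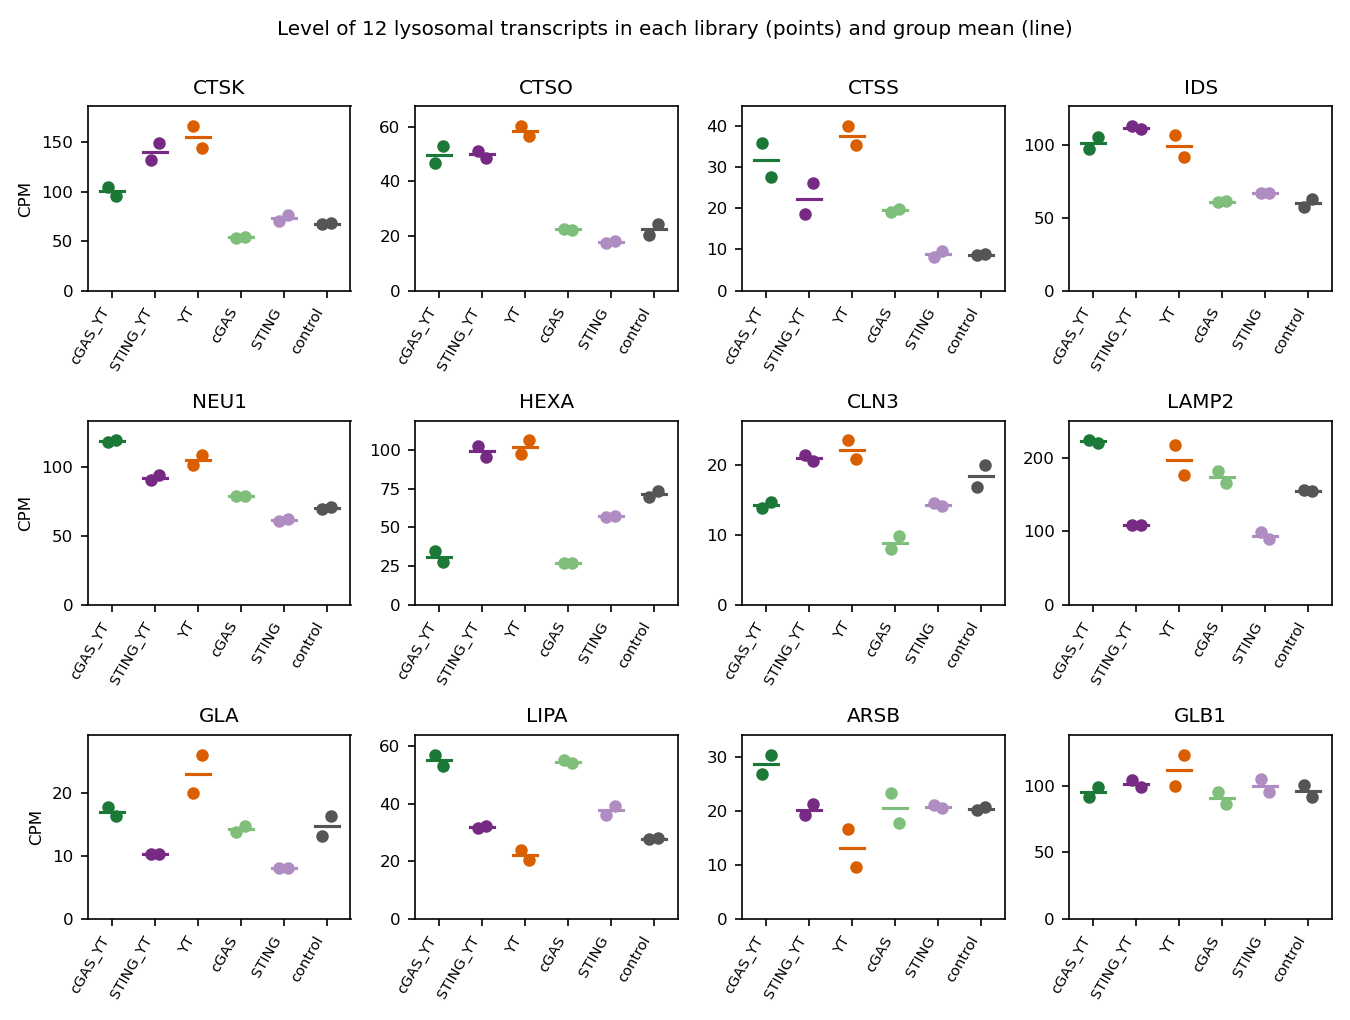
Level in CPM of 12 lysosomal transcripts in each of the 12 libraries (points), grouped by siRNA, with a line at each group's mean (n = 2). CTSK, CTSO, IDS and NEU1 are higher in all 6 libraries with YAP and TAZ siRNAs than in the other 6, HEXA is lowest with cGAS siRNAs, and LAMP2 and GLA are lowest with STING siRNAs.

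Of the 10 glycosidases, 6 rose in YT cells, 2 in cGAS_YT cells and 5 in STING_YT cells, and 0 fell. NEU1, the lysosomal sialidase (chr6:31857659-31862906, GRCh38, minus strand), changed by like amounts in the 3 backgrounds. It was at 118 and 119 CPM in cGAS_YT cells, 90.1 and 94.3 in STING_YT cells, 101 and 108 in YT cells, 78.7 and 79.0 in cGAS cells, 60.4 and 62.2 in STING cells and 69.2 and 70.9 in control cells. The groups with and without YAP and TAZ siRNAs did not overlap, and the log2 change was 0.58 ± 0.08, 0.58 ± 0.08 and 0.57 ± 0.08 (adjusted p = 5.66e-05, 2.79e-05 and 2.95e-05) in cGAS_YT, STING_YT and YT cells. GLB1, the beta-galactosidase that shares a complex with NEU1 and CTSA, lay at 91.6 to 123 CPM in the 6 libraries with YAP and TAZ siRNAs, against 85.9 to 105 CPM in the other 6. These ranges overlapped, and GLB1 passed in none of the 7 pairwise comparisons, its 3 YAP and TAZ siRNA changes being 0.07 ± 0.10, 0.02 ± 0.10 and 0.21 ± 0.10. Reads of the gene TMPPE, whose exons overlap GLB1 on the same strand, could have been assigned to either.

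MANBA cleaves beta-linked mannose from glycans. Its levels were low, 3.73 and 3.37 CPM in cGAS_YT cells, 2.61 and 3.35 in STING_YT cells, 6.55 and 4.01 in YT cells, 1.88 and 2.31 in cGAS cells, 1.63 and 1.07 in STING cells and 1.56 and 0.511 in control cells. The 6 libraries with YAP and TAZ siRNAs lay above the other 6, and MANBA rose by 1.65 ± 0.27 (adjusted p = 1.34e-04) in YT cells. In STING_YT cells the change was 0.76 ± 0.27 (adjusted p = 0.0339, but 0.204 at most with a library left out), and in cGAS_YT cells 0.56 ± 0.27, which did not pass (adjusted p = 0.144). The alpha-glucosidase GAA, which breaks down lysosomal glycogen, was at 30.7 and 34.8 CPM in cGAS_YT cells, 53.1 and 44.1 in STING_YT cells, 45.8 and 47.4 in YT cells, 24.5 and 24.6 in cGAS cells, 30.2 and 31.7 in STING cells and 30.1 and 28.5 in control cells. It rose in all 3 comparisons, by 0.40, 0.63 and 0.65, the cGAS_YT call being lost without either cGAS library or cGAS_YT replicate 10. HEXA, the alpha subunit of beta-hexosaminidase, rose by 0.79 in STING_YT and 0.50 in YT cells. NAGLU, which removes N-acetylglucosamine from heparan sulfate, rose in the same comparisons by 0.56 and 0.34, with the YT value at 0.20 (adjusted p = 0.282) without control replicate 1. GLA, an alpha-galactosidase, rose in YT cells only, by 0.60 ± 0.16, and did not pass without YT replicate 4 (0.42). GUSB, IDUA and FUCA1 passed in none of the 3, with levels over the 12 libraries of 14.6 to 29.4, 4.99 to 11.99 and 1.39 to 3.58 CPM. GUSB and CTSL have related pseudogenes, so their values are uncertain as far as counting could split reads.

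The 5 sulfatases split. IDS, which removes sulfate from iduronate in heparan and dermatan sulfate, and SGSH, the heparan sulfamidase, rose in all 3 comparisons. IDS (chrX:149476990-149521096, GRCh38, minus strand) was at 97.4 and 105 CPM in cGAS_YT cells, 113 and 111 in STING_YT cells, 107 and 91.5 in YT cells, 60.8 and 61.4 in cGAS cells, 67.3 and 67.0 in STING cells and 57.6 and 62.7 in control cells. Without overlap between libraries with and without YAP and TAZ siRNAs, IDS rose by 0.72 ± 0.09, 0.73 ± 0.09 and 0.71 ± 0.09 (adjusted p = 2.61e-05, 1.10e-05 and 1.27e-05), with SEs that cover the differences between the 3. SGSH rose by 0.33, 0.42 and 0.28, but its call in YT cells was lost without any of 7 libraries (lowest value 0.22). Exons of SGSH overlap the gene SLC26A11 on the other strand. SLC26A11 was at 24.4 and 23.0 CPM in cGAS_YT cells, 30.5 and 31.1 in STING_YT cells and 28.3 and 27.8 in YT cells. It was at 19.7 and 17.9 CPM in cGAS cells, 16.9 and 21.2 in STING cells and 21.4 and 19.4 in control cells. The part of its reads in the SGSH values was not tested. ARSB, arylsulfatase B, which acts on dermatan and chondroitin sulfate, went the other way in YT cells. Its levels were 27.0 and 30.5 CPM in cGAS_YT cells, 19.2 and 21.3 in STING_YT cells, 16.7 and 9.62 in YT cells, 23.4 and 17.8 in cGAS cells, 21.1 and 20.7 in STING cells and 20.1 and 20.8 in control cells. The YT pair was the lowest and the most divergent, and ARSB fell by 0.64 ± 0.19 (adjusted p = 0.0125) in YT cells, with -0.27 (adjusted p = 0.184) without YT replicate 4. In cGAS_YT and STING_YT cells ARSB did not pass, at 0.47 ± 0.19 and -0.04 ± 0.19. GALNS and ARSA passed in none of the 3. GALNS gave 0.18 ± 0.13, 0.28 ± 0.13 and 0.24 ± 0.13, and ARSA, whose loss causes metachromatic leukodystrophy, -0.04 ± 0.19, 0.34 ± 0.19 and 0.41 ± 0.19, in cGAS_YT, STING_YT and YT cells.

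Of the 6 proteins of lipid breakdown, 5 rose in YT cells, 4 in cGAS_YT cells and 2 in STING_YT cells. ASAH1, acid ceramidase, rose in all 3, by 0.41, 0.33 and 0.30. PSAP was at 950.2 and 1057 CPM in cGAS_YT cells, 1310.4 and 1281 in STING_YT cells, 1230.1 and 1463 in YT cells, 902 and 898 in cGAS cells, 920.3 and 900.4 in STING cells and 909 and 852 in control cells. It rose in STING_YT cells by 0.51 ± 0.09 (adjusted p = 3.99e-04) and in YT cells by 0.61 ± 0.09 (adjusted p = 6.92e-05), and the cGAS_YT value of 0.16 ± 0.09 did not pass (adjusted p = 0.243). All 6 libraries with YAP and TAZ siRNAs were still above the other 6. The acid sphingomyelinase SMPD1, the GM2 ganglioside activator GM2A and the palmitoyl-protein thioesterase PPT1 rose in cGAS_YT cells (by 0.34, 0.37 and 0.37) and in YT cells (by 0.34, 0.31 and 0.30), and missed the threshold in STING_YT cells (0.22, 0.28 and 0.22). Without YT replicate 4 the YT values of SMPD1 and GM2A were 0.16 and 0.15. LIPA, the acid lipase that frees cholesterol and fatty acids from lipoproteins, fell by 0.32 ± 0.11 in YT cells (adjusted p = 0.0259), with -0.20 without YT replicate 4, short of the threshold.

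Among the 4 membrane proteins, LAMP1 rose in all 3 comparisons, by 0.25 ± 0.09, 0.38 ± 0.09 and 0.39 ± 0.09. It was at 986 and 1103 CPM in cGAS_YT cells, 1125 and 1089.95 in STING_YT cells, 1079 and 1220.2 in YT cells, 873 and 881 in cGAS cells, 869 and 831 in STING cells and 873 and 875 in control cells, with no overlap between libraries with and without YAP and TAZ siRNAs. The cGAS_YT call of LAMP1 was lost without any of 7 libraries (lowest value 0.17). LAMP2, which also serves in chaperone-mediated autophagy, rose in cGAS_YT and YT cells, by 0.36 and 0.33, and did not pass in STING_YT cells (0.21). The YT value of LAMP2 was 0.18 without YT replicate 3. CLN3, a membrane protein lost in juvenile neuronal ceroid lipofuscinosis, rose by 0.63 in cGAS_YT and 0.52 in STING_YT cells and was at 0.26 in YT cells, short of the threshold. MCOLN1, near the floor of the table, gave 0.48, 0.60 and 0.42, none of which passed.

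**Figure D4:**
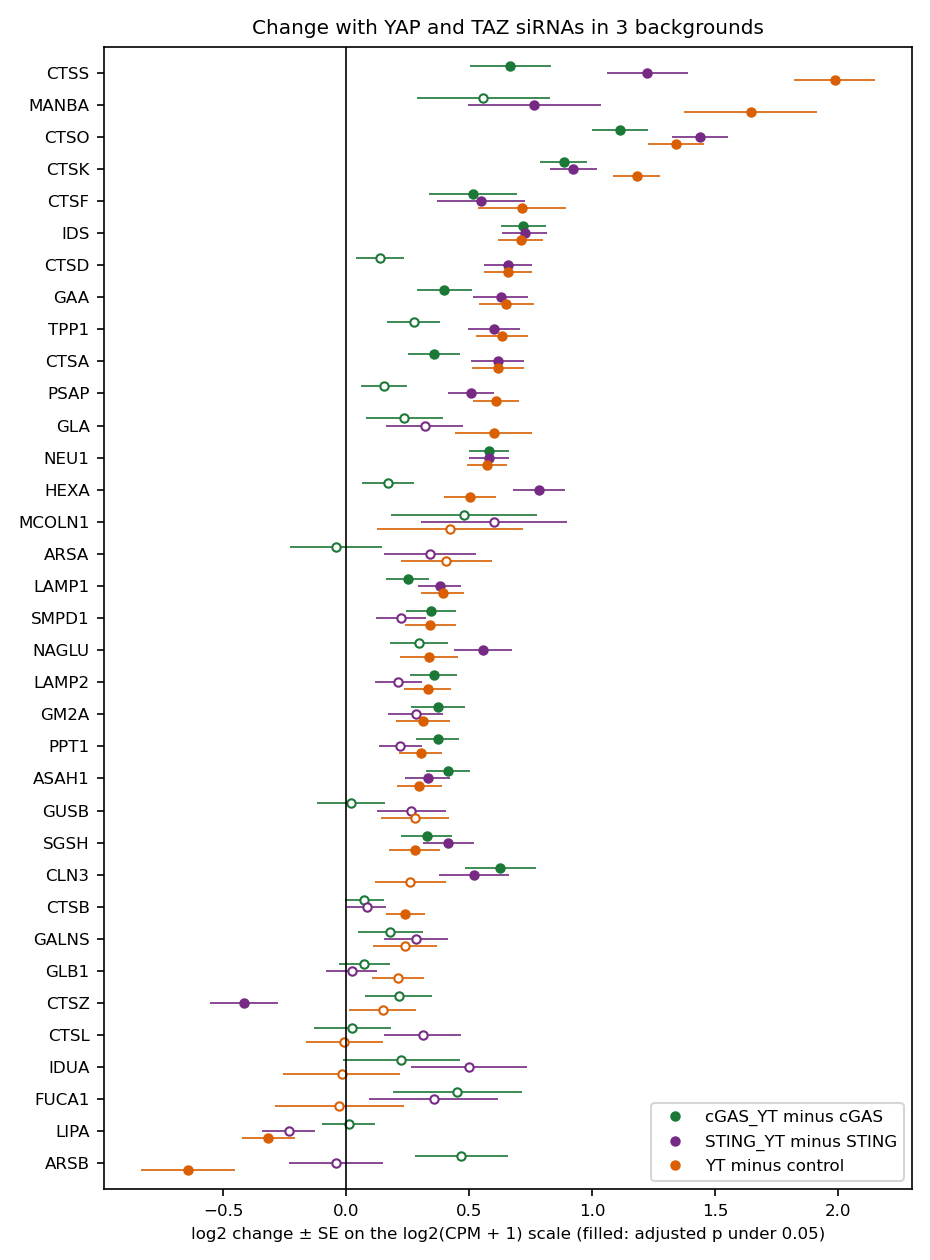
Log2 change ± SE of the 35 lysosomal transcripts in cGAS_YT against cGAS, STING_YT against STING and YT against control cells (2 libraries per group), filled where limma's adjusted p was under 0.05. CTSK, CTSO, NEU1 and IDS are filled in all 3, and ARSB and LIPA are filled below 0 in YT cells.

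The promoters of these genes were searched for TCACGTG, the 7-letter core of the element that TFEB and TFE3 bind, on both strands (its reverse complement reads CACGTGA, and where the 2 overlap they form TCACGTGA). RefSeq windows of 300 bases around the gene start (GRCh38.p14) were at hand for 23 of the 35. Of these, 10 (43.5%) held the motif, against 3.71% of the 35116 promoters of that length and 7.31% of the 9735 genes of the table that had a window. The 10 were ARSB, NEU1, CTSD, CTSF, LAMP1, CLN3, GALNS, GAA, MCOLN1 and CTSA. Among the 10, 6 rose in cGAS_YT, 7 in STING_YT and 6 in YT cells, with median log2 changes of 0.43, 0.57 and 0.50. Among the 13 without it, 4, 2 and 6 rose, with medians of 0.24, 0.28 and 0.28. The 12 transcripts without a window are in neither count. They include CTSS, MANBA, CTSO and CTSK, which had the largest rises in YT cells (1.99, 1.65, 1.34 and 1.18). Whether the rises go with the motif was not tested. A match is a description of the letters, not of bound protein. IDS, which rose in all 3 comparisons, had no match in its window, and ARSB, which fell in YT cells, had 1. The match nearest the gene start is shown in capitals, on the gene's strand, for 4 promoters of transcripts that rose in all 3 comparisons and for those of CTSD and ARSB:
NEU1 promoter, chr6:31862932-31862958, minus strand: tgctgcgtgaTCACGTGggaggagatg
LAMP1 promoter, chr13:113297227-113297254, plus strand: gcggcgcagcTCACGTGAcaagcgctgc
GAA promoter, chr17:80101539-80101566, plus strand: ctcccgccggTCACGTGAcccgcctctg
CTSA promoter, chr20:45891299-45891326, plus strand: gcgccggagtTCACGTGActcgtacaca
CTSD promoter, chr11:1763958-1763984, minus strand: cggccgcgccCACGTGAccggtccggg
ARSB promoter, chr5:78986102-78986128, minus strand: attcaataagCACGTGActaaaggatt

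With cGAS siRNAs more of the 35 passed as lower than as higher, HEXA with the largest change, while LIPA rose. The log2 change was positive for 17 of the 35 in cGAS cells (median -0.0013) and for 12 in cGAS_YT cells (median -0.24). The median over all genes was -0.02 and 0.00 in the same comparisons, so in cGAS cells the 35 had no shift in their median. Relative to control cells, 2 of the 35 were higher and 9 lower in cGAS cells, where 11.1% of all genes were higher and 14.3% lower (25.4% in either direction). Relative to YT cells, 3 were higher and 15 lower in cGAS_YT cells, where 20.5% of all genes were higher and 20.2% lower (40.7% in either direction). The same 9, CTSB, CTSK, CTSZ, TPP1, HEXA, GUSB, GALNS, ASAH1 and CLN3, were lower in both comparisons, as were 8.53% of all genes, and LIPA was higher in both. Of the 9, CTSB, HEXA, ASAH1 and CLN3 passed in both whichever library was left out. CTSK, CTSZ, TPP1, GUSB and GALNS each lost the call against control cells without control replicate 2 and also without 1 or both of the cGAS libraries (adjusted p up to 0.185, for GUSB). By role, the peptidases gave 1 higher and 7 lower of 10 in cGAS_YT cells and 1 higher and 4 lower in cGAS cells, and the glycosidases 0 higher and 4 lower of 10 in cGAS_YT cells and 0 higher and 2 lower in cGAS cells. TPP1 fell by 0.72 in cGAS_YT and 0.36 in cGAS cells, CTSK by 0.62 and 0.32, and the glucuronidase GUSB by 0.74 and 0.48 in the same pair of comparisons. Summed fibroblast markers were 24282 to 27610.3 CPM in cGAS_YT cells, against 28366 to 30045 CPM in YT cells, and 24959 to 26017 CPM in cGAS cells, against 35062 to 36059 CPM in control cells. Summed epithelial markers were 16.6 to 17.4 CPM in cGAS_YT cells, against 25.2 to 32.3 CPM in YT cells, and 20.3 to 23.4 CPM in cGAS cells, against 40.4 to 47.7 CPM in control cells. The keratins KRT8 and KRT18 among them were lower in both comparisons, KRT8 at -0.74 ± 0.17 in cGAS_YT and -0.77 ± 0.17 in cGAS cells and KRT18 at -0.73 ± 0.18 and -1.13 ± 0.18. The endothelial marker TEK was lower in cGAS cells, at -0.31 ± 0.08, and did not pass in cGAS_YT cells, at -0.21 ± 0.08 (adjusted p = 0.0606). The part of these markers in the lysosomal changes was not tested.

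HEXA, the subunit that is mutated in Tay-Sachs disease (chr15:72340919-72376476, GRCh38, minus strand), had the largest changes. It was measured at 34.6 and 27.4 CPM in cGAS_YT cells, 103 and 95.6 in STING_YT cells, 97.6 and 106 in YT cells, 27.3 and 27.2 in cGAS cells, 56.8 and 57.2 in STING cells and 69.5 and 73.4 in control cells. The 4 libraries with cGAS siRNAs lay far below the other 8, with a log2 change of -1.69 ± 0.11 (adjusted p = 2.89e-09) in cGAS_YT cells and -1.36 ± 0.11 (adjusted p = 1.55e-07) in cGAS cells. CLN3 was at 13.7 and 14.6 CPM in cGAS_YT cells, 21.3 and 20.5 in STING_YT cells, 23.5 and 20.8 in YT cells, 7.98 and 9.77 in cGAS cells, 14.5 and 14.1 in STING cells and 16.8 and 19.9 in control cells. It fell by 0.60 ± 0.14 in cGAS_YT cells (adjusted p = 0.00307) and by 0.97 ± 0.14 in cGAS cells (adjusted p = 1.08e-04). Within each background the cGAS siRNA pair was the lower. CTSB was at 836 and 846 CPM in cGAS_YT cells, 1131 and 1097 in STING_YT cells, 1418 and 1489.8 in YT cells, 819.6 and 779 in cGAS cells, 1063 and 1041 in STING cells and 1216 and 1243 in control cells. With cGAS siRNAs it fell by 0.79 ± 0.08 in cGAS_YT cells (adjusted p = 6.59e-07) and by 0.62 ± 0.08 in cGAS cells (adjusted p = 2.31e-05), and all 4 libraries lay below the other 8. ASAH1 was at 58.4 and 59.1 CPM in cGAS_YT cells, 67.5 and 77.9 in STING_YT cells, 78.2 and 77.3 in YT cells, 44.8 and 42.9 in cGAS cells, 57.2 and 57.6 in STING cells and 63.5 and 62.7 in control cells. It fell by 0.40 ± 0.09 in cGAS_YT cells (adjusted p = 0.00225) and by 0.52 ± 0.09 in cGAS cells (adjusted p = 5.20e-04). Each pair with cGAS siRNAs lay below its own counterpart.

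LIPA and CTSS moved up with cGAS siRNAs. LIPA (chr10:89213569-89414557, GRCh38, minus strand) was at 57.1 and 53.0 CPM in cGAS_YT cells, 31.5 and 32.3 in STING_YT cells, 24.1 and 20.4 in YT cells, 55.2 and 54.0 in cGAS cells, 36.1 and 39.4 in STING cells and 27.8 and 27.95 in control cells. It was higher by 1.27 ± 0.11 (adjusted p = 9.98e-08) in cGAS_YT cells and by 0.95 ± 0.11 (adjusted p = 7.87e-06) in cGAS cells, and the 4 libraries lay above the other 8. Exons of LIPA overlap those of the interferon-induced gene IFIT2 on the other strand, and whether the authors' counting kept strands apart is not given in the sources used here. IFIT2 was at 134 and 43.2 CPM in cGAS_YT cells, 64.8 and 61.2 in cGAS cells and no more than 12.4 CPM in the other 8 libraries. The part of IFIT2 reads in the LIPA values was not tested. CTSS rose by 1.08 ± 0.16 (adjusted p = 1.45e-04) in cGAS cells and did not pass in cGAS_YT cells relative to YT cells, at -0.24 ± 0.16 (adjusted p = 0.255). MX1, an interferon-stimulated gene, stood beside it at 780.4 and 246 CPM in cGAS_YT cells, 33.7 and 42.5 in YT cells, 554 and 529 in cGAS cells and 11.7 and 11.0 in control cells. The part of interferon-stimulated transcription in the CTSS values was not tested.

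In cGAS_YT cells relative to YT cells, 6 further transcripts were lower than without cGAS siRNAs, namely CTSA, CTSD, CTSF, GLA, GAA and PSAP. CTSD gave -0.76 ± 0.10 (adjusted p = 1.21e-05), GAA -0.50 ± 0.11 and PSAP -0.42 ± 0.09, and these 3 held with any library left out. The other 3 did not: CTSA and CTSF lost the call without cGAS_YT replicate 9, at an adjusted p of 0.0501 for CTSA and 0.148 for CTSF (which also lost it without YT replicate 4), and GLA lost it without any of 9 libraries, its value being -0.22 without YT replicate 4. Higher were LIPA, CTSL and ARSB. The call of CTSL (0.41 ± 0.16, adjusted p = 0.047) was lost without any of 11 libraries and its value was 0.02 without YT replicate 4, while ARSB gave 1.11 ± 0.19 (adjusted p = 2.01e-04).

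siRNAs can lower transcripts other than their target through short matches in 3′ untranslated regions (UTRs), so 7-letter words of the UTRs were related to the changes. For 9573 genes that averaged 5 CPM or more and had an annotated UTR of 50 bases or more (GENCODE release 29, GRCh38), 16152 heptamers found in at least 50 genes were ranked by how low the log2 change was where the word was present, after adjustment for UTR length and GC content, with the lysosomal genes left out of the ranking. For the cGAS siRNAs the first was GCATTCA. It occurred in the UTRs of 1129 genes, 32.8% of which were lower in cGAS cells, against 15.7% of those without it. The cGAS transcript itself holds it, along with 18.4% of the heptamers ranked. Among the 34 lysosomal transcripts with such a UTR, 4 held it, CTSB, HEXA, ASAH1 and CLN3. All 4 fell in cGAS cells, with a median log2 change of -0.80, and they are the same 4 that were lower with cGAS siRNAs in both backgrounds under every left-out library. Of the 30 without it, 5 fell, the lowest at -0.51. The second, AGCATTC, which overlaps the first, marked genes of which 25.3% were lower, against 16.6% of those without, and was held by CTSB and ASAH1, which fell, and by GM2A, at 0.10. For the STING siRNAs the first heptamer, GTCATAT, was in the UTRs of IDS and GM2A, neither of which fell, and the second, CTGGATA, in those of TPP1, SMPD1 and LAMP2, of which TPP1 and LAMP2 fell in STING cells. Of genes with GTCATAT 21.1% were lower in STING cells, against 10.1% of those without. Of genes with CTGGATA 19.1% were lower, against 10.2% of those without. For the YAP and TAZ siRNAs the first heptamer, GGAACTT, was in the UTRs of CTSS, which rose by 1.99 in YT cells, and of ARSB, at -0.64, and the second, TGGAACT, in those of CTSB, at 0.24, and ARSB. Of genes with GGAACTT 33.1% were lower in YT cells, against 24.2% of those without. The sources used here give no siRNA sequences, a UTR other than the longest annotated may be in use in these cells, and whether the siRNAs act on these transcripts was not tested. The heptamer is in capitals in these windows, given on the gene's strand (GRCh38), for HEXA and CLN3, the 2 transcripts lowered most in cGAS against control cells, and for LAMP2 and TPP1, which fell with STING siRNAs:
HEXA 3′ UTR, chr15:72343908-72343934, minus strand: gctggcgctcGCATTCAataaagagta
CLN3 3′ UTR, chr16:28476800-28476826, minus strand: attcattcatGCATTCAttgtttggga
LAMP2 3′ UTR, chrX:120438441-120438467, minus strand: tttaaaaaaaCTGGATAtttcaatctt
TPP1 3′ UTR, chr11:6613440-6613466, minus strand: tcaaggattaCTGGATAgaattcaggc

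With STING siRNAs, the membrane protein LAMP2 and the alpha-galactosidase GLA fell most. Relative to control cells, 2 were higher and 5 lower in STING cells, where 6.14% of all genes were higher and 8.86% lower (15% in either direction). Relative to YT cells, 3 were higher and 8 lower in STING_YT cells, where 16% of all genes were higher and 18.0% lower (34.1% in either direction). Lower in both were TPP1, GLA, GALNS and LAMP2, as were 6.44% of all genes, and higher in both were LIPA and PPT1. TEK was lower in both as well, at -0.54 ± 0.08 in STING_YT and -0.44 ± 0.08 in STING cells. Summed fibroblast markers were 36411 to 39317 CPM in STING_YT cells, against 28366 to 30045 CPM in YT cells, and 32655 to 32809 CPM in STING cells, against 35062 to 36059 CPM in control cells. Summed epithelial markers were 28.2 to 32.6 CPM in STING_YT cells, against 25.2 to 32.3 CPM in YT cells, and 42.5 to 45.5 CPM in STING cells, against 40.4 to 47.7 CPM in control cells. The part of these markers in the changes with STING siRNAs was not tested. LAMP2 (chrX:120427827-120469365, GRCh38, minus strand) was at 224 and 220.5 CPM in cGAS_YT cells, 109 and 108 in STING_YT cells, 217 and 177 in YT cells, 182 and 165 in cGAS cells, 98.5 and 89.1 in STING cells and 156 and 154 in control cells. The 4 libraries with STING siRNAs were the lowest of the 12, and LAMP2 fell by 0.84 ± 0.10 in STING_YT cells (adjusted p = 4.40e-06) and by 0.72 ± 0.10 in STING cells (adjusted p = 8.05e-05). GLA (chrX:101397803-101408012, minus strand), whose loss causes Fabry disease, was at 17.7 and 16.3 CPM in cGAS_YT cells, 10.4 and 10.3 in STING_YT cells, 19.97 and 26.1 in YT cells, 13.8 and 14.8 in cGAS cells, 8.03 and 8.15 in STING cells and 13.2 and 16.4 in control cells. It fell by 1.07 ± 0.16 in STING_YT cells (adjusted p = 6.26e-05) and by 0.79 ± 0.16 in STING cells (adjusted p = 0.00269), and again the 4 libraries with STING siRNAs lay below the other 8. LAMP2 and GLA kept both calls with any library left out. GALNS, a galactosamine sulfatase, was at 28.1 and 32.7 CPM in cGAS_YT cells, 32.0 and 27.6 in STING_YT cells, 40.2 and 49.4 in YT cells, 26.1 and 27.1 in cGAS cells, 25.6 and 22.9 in STING cells and 34.98 and 40.5 in control cells. Libraries with cGAS or STING siRNAs held less of it than those of the same background without. It fell with STING siRNAs by 0.57 in STING_YT and 0.61 in STING cells, calls that were lost without STING_YT replicate 16 and without STING replicate 14 or control replicate 2. TPP1 fell by 0.37 in STING_YT and 0.34 in STING cells, and its call in STING cells was lost without any of 8 libraries. IFIT2, whose exons overlap those of LIPA, was at 9.77 and 12.4 CPM in STING_YT cells, against 6.23 and 6.69 CPM in YT cells. In STING cells IFIT2 was at 6.88 and 6.54 CPM, against 8.51 and 8.92 CPM in control cells. The part of IFIT2 reads in the LIPA values was not tested here either. PPT1 rose by 0.30 in STING_YT and 0.38 in STING cells and LIPA by 0.51 and 0.42. Those of PPT1 were lost without STING_YT replicate 15 in STING_YT cells and without control replicate 1 or STING replicate 13 in STING cells, and that of LIPA in STING cells without either control library or STING replicate 14. In STING_YT cells relative to YT cells, CTSB fell by 0.38 ± 0.08 (adjusted p = 0.00126), whichever library was left out. SMPD1 and CTSZ also fell and ARSB rose there, but without YT replicate 4 they did not pass, with values of -0.11, -0.18 and 0.26, nor did TPP1 at -0.22. In the same comparison CTSS had a change of -0.74 ± 0.16 (adjusted p = 0.0023, or 0.0607 without STING_YT replicate 15), with MX1 at 31.0 and 50.96 CPM in STING_YT cells, against 33.7 and 42.5 CPM in YT cells.

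**Figure D5:**
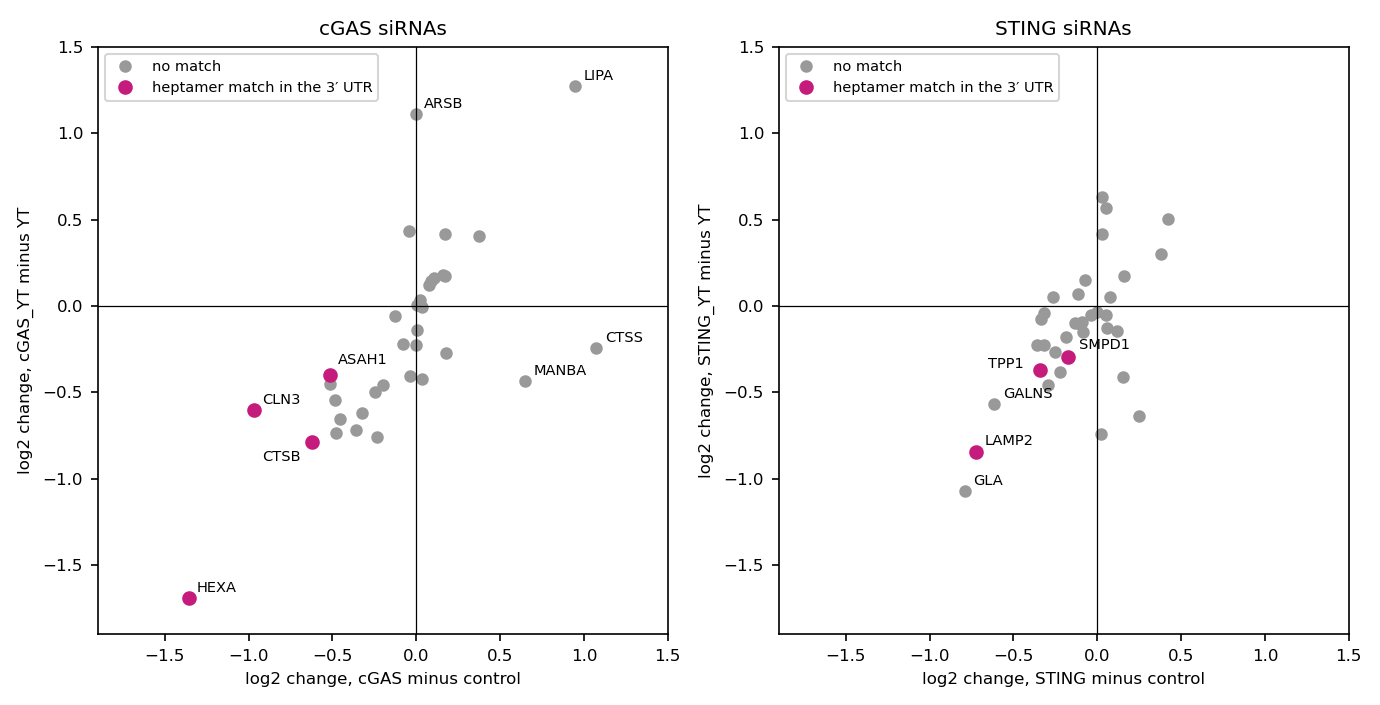
Log2 change of the 35 lysosomal transcripts with cGAS siRNAs (left) and STING siRNAs (right), in cells without (x axis, against control) and with (y axis, against YT) YAP and TAZ siRNAs. The axes share no libraries. Pink points hold the heptamer GCATTCA (left, ranked first) or CTGGATA (right, ranked second) in the 3′ UTR. The first for STING, GTCATAT, held by IDS and GM2A, is not marked. HEXA lies at -1.36 and -1.69 on the left, LAMP2 at -0.72 and -0.84 on the right.

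Whether YAP and TAZ siRNAs acted differently in the presence of cGAS siRNAs was tested by the interaction term, the change in cGAS_YT against cGAS cells minus that in YT against control cells. It passed for 4 of the 35, 1 positive and 3 negative, where it was positive for 7.5% of all genes and negative for 5.93% (13.4% in either direction). CTSS (-1.32), CTSD (-0.52) and PSAP (-0.45) had smaller changes with YAP and TAZ siRNAs in cGAS-depleted cells, and ARSB (1.11) had a higher change there. Only the CTSS term passed whichever library was left out. The YAP1 transcript itself changed by -1.97 in cGAS_YT and by -2.83 in YT cells, each against its counterpart. Its interaction term passed, at 0.86 (limma, adjusted p = 0.00516), and that of WWTR1 did not, at 0.44. The part of the weaker YAP1 change in the lysosomal terms was not tested. For the STING siRNAs the interaction passed for 0 of the 35 by limma, with 4 at an unadjusted p under 0.05, and for 7.88% of all genes (3.35% positive, 4.53% negative). On the whole reads recovered from the table, edgeR called 0 of the 35 (3 at an unadjusted p under 0.05) and DESeq2 called 2 (3 at an unadjusted p under 0.05), CTSS and CTSZ.

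Other genes of the organelle were counted from lists of known roles, and each count is to be read against the share of all genes called. With YAP and TAZ siRNAs 20.6% of all genes were higher and 20.9% lower in YT cells, 15% and 12.7% in cGAS_YT cells relative to cGAS cells, and 19.1% and 19.8% in STING_YT cells relative to STING cells. Of 41 other lysosomal genes, 16 rose and 3 fell in YT cells, and the counts with YAP and TAZ siRNAs were 10 rose and 2 fell in cGAS_YT cells, 16 rose and 6 fell in STING_YT cells. The cholesterol exporters NPC1 and NPC2 gave 1.23 ± 0.13 (adjusted p = 1.13e-06) and 0.65 ± 0.08 in YT cells, the sialic acid transporter SLC17A5 0.83 ± 0.09, the chloride exchanger CLCN7 0.97 ± 0.12 and the channel TPCN1 1.05 ± 0.13. TPCN1 did not pass with YAP and TAZ siRNAs in cGAS_YT (-0.20) or STING_YT cells (0.31), and its interaction term passed for both sensors, at -1.25 for cGAS and -0.75 for STING. Of 17 measured subunits and accessory proteins of the proton pump that acidifies the organelle, 10 rose and 1 fell in YT cells (3 rose and 1 fell in cGAS_YT cells, 3 rose and 1 fell in STING_YT cells), with ATP6AP1 at 0.76 ± 0.11 and ATP6V0B at 0.65 ± 0.09. The 3 of 17 that rose in cGAS_YT and in STING_YT cells are near the shares of all genes that were higher. ATP6V0B passed in neither cGAS_YT cells, with a change of -0.13, nor STING_YT cells, with 0.07, while its interaction terms did, at -0.78 for cGAS and -0.58 for STING. ATP6AP1 rose by 0.39 in STING_YT cells and did not pass in cGAS_YT cells, at 0.23. Its interaction term passed for cGAS, at -0.52, and not for STING, at -0.37. Of 19 autophagy genes, 10 rose and 2 fell in YT cells (3 rose and 2 fell in cGAS_YT cells, 7 rose and 3 fell in STING_YT cells). The cargo receptor SQSTM1 rose by 1.30 ± 0.08 (adjusted p = 3.75e-09) and the initiating kinase ULK1 by 1.08 ± 0.09 (adjusted p = 1.20e-07) in YT cells. With YAP and TAZ siRNAs SQSTM1 rose by 0.40 in cGAS_YT and 0.86 in STING_YT cells, and ULK1 by 0.34 and 0.87. The interaction term of SQSTM1 passed for both sensors, at -0.90 for cGAS and -0.44 for STING. That of ULK1 passed for cGAS, at -0.73, and not for STING, at -0.21.

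Regulators and sorting factors passed in YT cells about as often as all genes did, of which 20.6% were higher and 20.9% lower. Of 21 genes of TFEB and of nutrient signalling at the lysosome, 4 rose and 4 fell in YT cells (5 rose and 2 fell in cGAS_YT cells, 7 rose and 5 fell in STING_YT cells). FLCN, which holds TFEB in check, rose by 0.99 ± 0.11, RRAGC, a small GTPase of the lysosomal surface, by 0.49 ± 0.11, and the TFEB relative MITF fell by 0.65 ± 0.11. With YAP and TAZ siRNAs in the other backgrounds, MITF rose by 0.45 ± 0.11 (adjusted p = 0.00596) in cGAS_YT cells and was at 0.15 ± 0.11 (adjusted p = 0.324) in STING_YT cells. Its interaction terms passed, at 1.10 ± 0.16 (adjusted p = 1.60e-04) for cGAS and 0.79 ± 0.16 (adjusted p = 0.00434) for STING. Of 15 genes that sort enzymes to the lysosome, 2 rose and 3 fell in YT cells (5 rose and 1 fell in cGAS_YT cells, 3 rose and 4 fell in STING_YT cells), with VPS35 at 0.36 ± 0.08 and the sorting receptor SORT1 at -0.42 ± 0.11. SORT1 rose with YAP and TAZ siRNAs in cGAS_YT cells, by 0.50 ± 0.11 (adjusted p = 0.00221), and was at 0.04 ± 0.11 (adjusted p = 0.788) in STING_YT cells. Its interaction term passed for cGAS, at 0.92 ± 0.15 (adjusted p = 5.25e-04), and not for STING, at 0.47 ± 0.15 (adjusted p = 0.0709). Of 4 measured cathepsin inhibitors, 1 rose and 1 fell in YT cells (1 rose and 0 fell in cGAS_YT cells, 2 rose and 0 fell in STING_YT cells), CST3 at 0.32 ± 0.08 and CSTB at -0.58 ± 0.15, which did not pass in cGAS_YT (-0.21) or STING_YT cells (-0.08). With cGAS siRNAs alone, 8 rose and 6 fell of the 41 other lysosomal genes, 0 rose and 5 fell of the 21 regulators and 2 rose and 3 fell of the 15 sorting genes, where 11.1% of all genes were higher and 14.3% lower. The share of the 41 that fell is thus close to that of all genes. The asparagine endopeptidase LGMN rose by 1.46 ± 0.19 in cGAS cells, the acetyltransferase HGSNAT of heparan sulfate breakdown fell by 1.05 ± 0.09, and the sorting receptors IGF2R and SORT1 fell by 1.09 and 1.22. With STING siRNAs alone, 2 rose and 5 fell of the 41, 4 rose and 1 fell of the 21 and 2 rose and 1 fell of the 15, where 6.14% of all genes were higher and 8.86% lower. TFEB itself fell by 1.09 ± 0.23 in STING cells and was at -0.31 ± 0.23 (adjusted p = 0.309) in STING_YT cells relative to YT cells, and the mannose phosphate receptor M6PR rose by 0.82 ± 0.10.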

How the data were processed

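Messenger RNA 3′ ends of 12 WI-38 libraries were sequenced with a 3′ kit, per the labels' protocols. STAR 2.5.3a, featureCounts, edgeR and the hg38 build are named in the submitters' processing notes, whereas their parameters, the strand setting and the gene annotation are, beyond that, not given in the sources used here. Deposited signal values were taken as CPM that the authors scaled by edgeR's TMM effective library sizes. Within a tolerance of 0.01 reads, 100% came out as whole multiples of a single read's worth, which gave back whole reads. Any scaling by library would give such multiples, so they do not show which was used.

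The planned design, drawn up for CPM, needed no change. The limma test (version 3.58.1, R 4.3.3, prior trended on intensity) was run on log2(CPM + 1) of the 13894 genes that had 1 CPM or more in 2 or more libraries. A joint fit took all 12 libraries (6 residual and on average 10.1 prior degrees of freedom) with 9 contrasts, Benjamini-Hochberg adjusted over all genes within each contrast at 0.05. Groups of 2 came from the titles. Members of the list, the companion lists and the tests were chosen with earlier results of these data known. Genes named were all 35 lysosomal genes and, from each companion list and comparison, up to 5 by smallest p. The procedure was tested on simulated data.

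Alternatives were pseudocounts of 0.25 and 4, no minimum or 5 CPM, a constant prior, rescaling by median ratios, fits of the compared groups only, each library left out, and edgeR 4.0.16 (quasi-likelihood) and DESeq2 1.42.0 on the recovered reads. Where a left-out library leaves a lone sample in a group, its spread is taken to equal that of the other groups. Exon overlaps came from GENCODE release 29 (GRCh38). Exons of 7 of the 35 genes overlap those of another gene of the table: CTSA with NEURL2 and PLTP, GLB1 with TMPPE, GALNS with TRAPPC2L, SGSH with SLC26A11, LIPA with IFIT2, PPT1 with CAP1 and MCOLN1 with PNPLA6. Reads of such pairs on opposite strands could not be told apart without the strand setting. GLB1 and TMPPE share a strand, as do MCOLN1 and PNPLA6, so that setting would not separate their reads. Promoter windows came from RefSeq (GRCh38.p14).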

Additional observations from a re-analysis of the deposited data

Results flagged for a closer look

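The change with YAP and TAZ siRNAs differed between cells with and without cGAS siRNAs for 4 of the 35 transcripts, by limma's interaction term with Benjamini-Hochberg adjustment over all genes. The term passed for 13.4% of all genes, so the count of 4 is near the background. It also passed for YAP1 itself, at 0.86 (limma, adjusted p = 0.00516), with changes of -1.97 in cGAS_YT and -2.83 in YT cells. The part of this YAP1 difference in the 4 terms was not tested. For CTSS the term was -1.32 ± 0.233 (SE, adjusted p = 0.00103), with rises of 0.67 in cGAS_YT cells and 1.99 in YT cells. MX1 was at 780.4 and 246 CPM in cGAS_YT cells, 33.7 and 42.5 in YT cells, 554 and 529 in cGAS cells and 11.7 and 11.0 in control cells, and its part in the CTSS term was not tested. For CTSD the term was -0.520 ± 0.138 (SE, adjusted p = 0.0188), with changes of 0.14 and 0.66, and for PSAP -0.453 ± 0.132 (SE, adjusted p = 0.0306), with changes of 0.16 and 0.61. For ARSB it was 1.11 ± 0.269 (SE, adjusted p = 0.0108), with changes of 0.47 and -0.64, where the YT libraries stood at 16.7 and 9.62 CPM. The CTSS term passed with every library left out (adjusted p up to 0.00911). The others did not: CTSD reached 0.086, ARSB 0.0698 without cGAS replicate 8 or cGAS_YT replicate 10, and PSAP 0.116. CTSD and PSAP each missed the threshold without control replicate 2, cGAS replicate 7, cGAS replicate 8 or cGAS_YT replicate 9, and PSAP also without YT replicate 4 or either STING_YT library.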

How the results depend on the processing

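No paired analysis was possible because each replicate number occurs once among the 12 libraries. Of the 111 calls among the 35 transcripts in the 9 contrasts, 57 kept their direction and their side of the threshold in every alternative and 0 reversed. With only the compared groups in the fit, 15 of 35 passed in YT against control cells (25 with all groups), 6 in STING_YT against YT cells (11) and 2 in the cGAS interaction (4). With a constant prior, 9 passed in cGAS_YT against cGAS cells (16), 7 in STING_YT against YT cells and 2 in the cGAS interaction. The STING interaction, 0 as reported, gave 1 with a pseudocount of 4, 1 with rescaling and 2 with DESeq2. The cause of these shifts was not tested. Counts over all genes moved by more than 1.5 times with only the compared groups in the YT against control fit (3784, from 5773) and with a constant prior in the STING interaction (703, from 1095).

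With 1 library left out, the count ranged from 17 to 26 in YT against control cells, 6 to 14 in cGAS against control, 3 to 11 in STING against control, 7 to 19 in cGAS_YT against cGAS, 15 to 27 in STING_YT against STING, 12 to 22 in cGAS_YT against YT, 6 to 19 in STING_YT against YT, 1 to 8 in the cGAS interaction and 0 to 4 in the STING interaction. In each of the 9 contrasts the highest count was reached without YT replicate 3, including contrasts that compare no YT library. The cGAS count was 6 without control replicate 2 and 7 without either cGAS library. The STING count was 3 without either control library or STING replicate 14, 4 without STING replicate 13 and 11 without either YT library. In cGAS_YT against cGAS cells it was 7, 8 and 9 without cGAS replicate 7, cGAS replicate 8 and cGAS_YT replicate 10. In STING_YT against YT cells it was 6 without either STING_YT library. The cGAS interaction gave 2 without control replicate 2 or cGAS replicate 7 and 1 without cGAS replicate 8. Over all genes, leaving out 1 library moved the count by more than 1.5 times in cGAS against control (as low as 2050, from 3528), STING against control (879, from 2084), cGAS_YT against cGAS (2258, from 3848), STING_YT against YT (3015, from 4731), the cGAS interaction (1111 to 3270, from 1866) and the STING interaction (550 to 2555, from 1095). Rescaling moved the median of all genes by at most 0.03 in each contrast. With 2 libraries per group, transcripts of a few CPM such as MANBA, FUCA1 and MCOLN1 have wide intervals.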
